A study of Mus musculus with 12 samples.

Results

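Caspases and inflammasome components were followed through 8 genes, namely Nlrp3, Pycard, Casp1, Casp4, Gsdmd, Casp8, Casp2 and Casp6. The genes were taken by name, and each was found as 1 row in both deposited count tables, so that 8 of the 52636 rows of a table were described. The question was whether calcitonin gene-related peptide (CGRP), a neuropeptide released by sensory neurons, changed their transcripts in innate immune cells of the mouse. Bone marrow neutrophils, and bone marrow monocytes kept for 3 days in M-CSF at 10 ng/ml (the growth factor that turns monocytes into macrophages, called macrophages here), were held for 4 h with 1 nM CGRP or with the saline PBS. The 4 groups were PBS neutrophils, CGRP neutrophils, PBS macrophages and CGRP macrophages, with 3 libraries in each and 12 in all. According to the methods, the cells came from C57BL/6J mice aged 8 to 12 weeks and were isolated with enrichment kits. No group carried a transgene or a deletion, and none received an infectious or inflammasome stimulus. The sources used here do not say whether the 3 libraries of a group came from separate animals or cultures, so the p-values measure the spread between these libraries, which may be technical.

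An inflammasome is assembled when a sensor such as NLRP3 recruits the adaptor ASC, the product of Pycard, which in turn gathers and activates caspase-1. Caspase-1 cuts the precursors of IL-1β and IL-18 and also cuts gasdermin D, whose released fragment forms pores in the plasma membrane. In the mouse, Casp4 encodes the caspase that responds to cytosolic lipopolysaccharide and cuts gasdermin D directly, while caspase-8, caspase-2 and caspase-6 are best known from other routes of cell death. Neutrophils and macrophages both use this machinery, and much of its control lies in protein assembly and cleavage, which transcript counts do not measure.

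The libraries held between 2002559 and 3631989 counts. PBS neutrophils had 2719556 to 3631989, CGRP neutrophils 2196558 to 3270388, PBS macrophages 2536415 to 3477069 and CGRP macrophages 2002559 to 3259073. Replicate 3 was the shallowest library of every group. Levels are given in CPM, counts scaled to a common library total, after TMM scaling over the 12 libraries. Because the libraries were made from the 3′ ends of transcripts, levels are compared for 1 gene between libraries and never between genes. In these bulk samples, fewer cells of a type and less RNA per cell cannot be told apart.

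The labelled cell types were checked against their markers. Neutrophil markers, led by S100a8, summed to between 156068 and 234569 CPM in the 6 neutrophil libraries and to between 301 and 443 CPM in the 6 macrophage libraries. Monocyte and macrophage markers, led by C1qb in the macrophage libraries, summed to between 11032 and 12996 CPM in macrophages and to between 694 and 844 CPM in neutrophils. The neutrophil libraries also held red cell markers, led by Hbb-bs, at 5317 to 6867 CPM, and markers of eosinophils, basophils and mast cells, led by Prg2, at 894 to 1135 CPM, against 7.91 to 11.9 CPM in macrophages. Platelet and megakaryocyte markers, led by Pf4, summed to 126 to 189 CPM in neutrophils and to 631 to 977 CPM in macrophages. The B cell, T or NK cell and dendritic cell lists summed to at most 97.2, 22.0 and 25.2 CPM in any library. The B cell list summed to between 31.3 and 39.9 CPM in the 6 macrophage libraries, all of it from Cd79b (74 to 119 counts per library), while Cd79a and Ms4a1 were at 0 counts there.

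Only Casp1 and Casp2 passed the test for an effect of CGRP, both in macrophages, and the 250 bases before the start of each gene are shown as the sequence context of these transcripts. Casp1 (ENSMUSG00000025888) lies on the plus strand of GRCm38 at chr9:5298517-5307265, and the protein-coding gene Casp4 begins on the same strand after a gap of 1562 bases. Casp2 (ENSMUSG00000029863) lies on the plus strand at chr6:42264985-42282508. The sequences are from RefSeq on GRCm38.p6, plus strand, at chr9:5298267-5298516 for Casp1 and chr6:42264735-42264984 for Casp2, and capitals mark matches on either strand to the CCAAT box (CCAAT) or the GC box (GGGCGG).

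Casp1: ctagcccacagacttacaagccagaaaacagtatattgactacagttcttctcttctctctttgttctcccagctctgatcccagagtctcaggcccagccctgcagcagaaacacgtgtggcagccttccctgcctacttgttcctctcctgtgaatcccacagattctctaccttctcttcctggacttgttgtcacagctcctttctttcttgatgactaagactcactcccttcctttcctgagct

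Casp2: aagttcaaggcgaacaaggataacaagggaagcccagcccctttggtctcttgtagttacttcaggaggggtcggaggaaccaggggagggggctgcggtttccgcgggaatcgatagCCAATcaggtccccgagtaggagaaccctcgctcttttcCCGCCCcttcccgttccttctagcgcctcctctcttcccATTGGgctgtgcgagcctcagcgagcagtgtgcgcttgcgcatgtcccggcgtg

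The Casp1 stretch held no match to either box, and the Casp2 stretch held 2 CCAAT boxes and 1 GC box. Of all 32817 such stretches, 33.8% held a CCAAT box and 32.7% a GC box. Such stretches were found for 7 of the 8 genes, without Gsdmd. The cAMP response element half-site (TGACG) was found before Casp4 alone, against 17.7% of all stretches, and no stretch of the 7 genes held the full element (TGACGTCA; 1.55% of all), which contains the half-site. None held the interferon motif GAS (TTCNNNGAA; 7.01%) or the core of the interferon-stimulated response element (GAAANNGAAA; 2.97%). Casp8 and Nlrp3 held a CCAAT box and Casp6 a GC box. Both boxes were added to the search after the sequences had been seen, and a match describes letters and not binding.

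PBS neutrophils and PBS macrophages, both held for 4 h without CGRP, were compared first. Only the macrophages had been kept for 3 days in M-CSF before, and the methods give them a different medium. Culture therefore cannot be told apart from cell type, here and in every later comparison between the cell types. All 8 genes were tested, and 6 of them passed. Nlrp3, Casp2 and Casp4 were higher in neutrophils, and Pycard, Casp1 and Casp6 were higher in macrophages. The share that passed was near the background, since 67.9% of the 10694 genes tested passed, and the 2 groups failed to overlap for 70.5% of genes and for 6 of the 8. The median log2 difference, neutrophils over macrophages, was 0.07 for the 8 genes and 0.03 for all genes tested.

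Nlrp3, the sensor, had 31.0, 26.7 and 22.0 CPM in PBS neutrophils and 11.2, 5.99 and 12.6 CPM in PBS macrophages. Every neutrophil library stood above every macrophage library, and the log2 difference was 1.49 (SE 0.27, limma-voom adjusted p = 5.15e-05). The macrophage values rested on 20 to 39 counts per library. Pycard, the adaptor, went the other way, with 235, 253 and 232 CPM in PBS neutrophils and 411, 512 and 352 CPM in PBS macrophages. Its log2 difference was -0.81 (SE 0.13, adjusted p = 8.12e-06), so that sensor and adaptor transcripts differed in opposite directions between the cell types.

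The inflammatory caspases were also split. Casp1 had 70.8, 63.2 and 58.4 CPM in PBS neutrophils and 126, 151 and 91.0 CPM in PBS macrophages, a log2 difference of -0.91 (SE 0.16, adjusted p = 2.42e-05). Casp4 had 16.1, 14.7 and 15.1 CPM in PBS neutrophils and 8.89, 9.29 and 9.35 CPM in PBS macrophages, a log2 difference of 0.73 (SE 0.23, adjusted p = 0.00654). Neither gene overlapped between the cell types. Gsdmd, the pore-forming substrate of both, had 64.3 ± 10.2 CPM (SD, n = 3) in PBS neutrophils and 51.8 ± 8.49 CPM in PBS macrophages and did not pass (log2 difference 0.30, 95% interval -0.03 to 0.63, adjusted p = 0.0986).

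Among the remaining caspases, Casp2, an initiator linked to the PIDDosome complex, had 33.5, 42.1 and 38.9 CPM in PBS neutrophils and 22.1, 18.0 and 25.5 CPM in PBS macrophages (log2 difference 0.82, SE 0.18, adjusted p = 0.000342). Casp6, an effector caspase, had 32.5 ± 1.69 CPM in PBS neutrophils and 66.3 ± 6.22 CPM in PBS macrophages (log2 difference -1.02, SE 0.15, adjusted p = 3.81e-06). The intervals of both differences lay on 1 side of 0. Casp8, the initiator of death receptor signalling, had 38.4 ± 5.86 CPM in PBS neutrophils and 44.0 ± 13.3 CPM in PBS macrophages. It did not pass, with a log2 difference of -0.16 (95% interval -0.56 to 0.24).

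**Figure D1:**
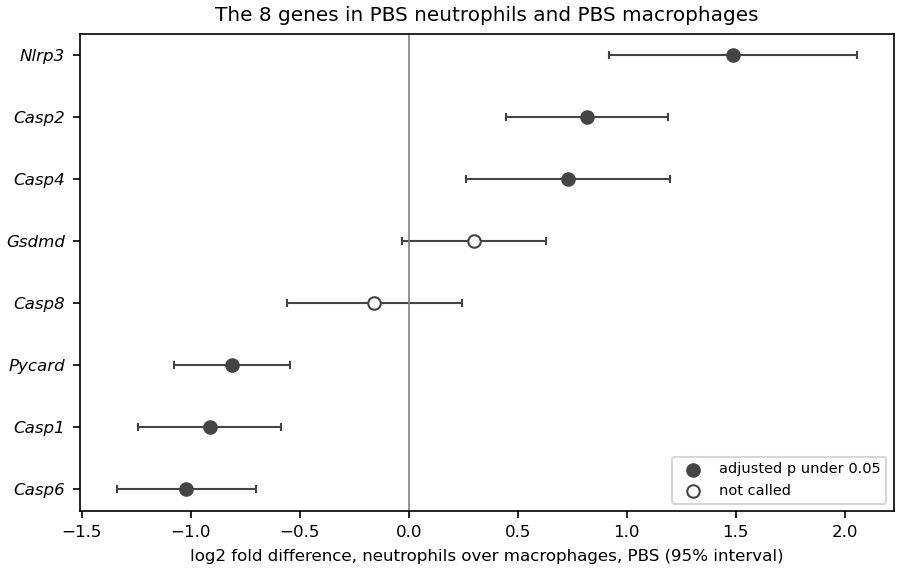
Log2 difference between PBS neutrophils and PBS macrophages (x axis) for each of the 8 genes (y axis, ordered by the difference), with 3 libraries per group, where bars are 95% intervals and filled points have an adjusted p under 0.05. Nlrp3, Casp2 and Casp4 lie to the right of 0, and Pycard, Casp1 and Casp6 to the left.

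In neutrophils, none of the 8 genes passed the test for an effect of CGRP. All 8 were tested and 0 reached an adjusted p of 0.05 by limma-voom, while 1 (Casp1) had an unadjusted p under 0.05, and edgeR and DESeq2 also called 0. The background was 2.53% of 9819 genes. The groups did not overlap for 2 of the 8 genes, Casp1 and Pycard, which were both lower with CGRP, against 17.8% of all genes tested. The median log2 fold change was -0.05 for the 8 genes and 0.0008 for all genes.

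Casp1 had 70.8, 63.2 and 58.4 CPM in PBS neutrophils and 50.7, 45.5 and 51.3 CPM in CGRP neutrophils. The CGRP libraries all stood below the PBS libraries, yet the change, which was -0.38 in log2 units (SE 0.12, adjusted p = 0.135), did not pass after adjustment. Pycard had 235, 253 and 232 CPM with PBS and 228, 217 and 203 CPM with CGRP (log2 fold change -0.14, SE 0.08, adjusted p = 0.548). The other 6 genes overlapped between the groups. Their log2 fold changes lay between -0.17 for Nlrp3 and 0.11 for Casp4, and the 95% interval of the former ran from -0.55 to 0.22.

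In macrophages, CGRP lowered Casp1 and raised Casp2, and the other 6 genes did not pass. The 2 calls among 8 genes stood beside a background of 7.43% of the 9393 genes tested. The groups did not overlap for Casp1, Casp2 and Casp6, against 24.1% of all genes. The median log2 fold change was -0.03 for the 8 genes and 0.005 for all genes, and the fold changes of the 8 genes had both signs.

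Casp1 had 126, 151 and 91.0 CPM in PBS macrophages and 88.7, 74.6 and 64.4 CPM in CGRP macrophages. Every CGRP library lay below every PBS library, although the highest CGRP value and the lowest PBS value were close. The log2 fold change was -0.66 (SE 0.19, limma-voom adjusted p = 0.0397), which is 1.58-fold lower. Casp2 had 22.1, 18.0 and 25.5 CPM with PBS and 29.5, 42.5 and 38.2 CPM with CGRP. All 3 CGRP libraries stood above all 3 PBS libraries, and the log2 fold change was 0.74 (SE 0.21, adjusted p = 0.0395), or 1.67-fold higher. These values rested on 128 to 505 counts per library for Casp1 and on 60 to 115 for Casp2.

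Both calls were close to the threshold and depended on single libraries. Casp1 passed in 2 of 6 fits that each left out 1 library, with adjusted p between 0.00307 and 0.170, and failed without PBS replicate 1, PBS replicate 2, CGRP replicate 2 or CGRP replicate 3. Casp2 failed without the same 4 libraries, with adjusted p between 0.00912 and 0.215 over the 6 fits. The fold changes kept their signs, from -0.85 to -0.50 for Casp1 and from 0.60 to 0.91 for Casp2. Library depth moved with Casp1, whose CPM followed the order of the library totals in both macrophage groups. These totals were 3379068, 3477069 and 2536415 with PBS and 3259073, 2692858 and 2002559 with CGRP. Pycard followed the same order in both groups, and the share of all genes that did so was not measured. When all 6 libraries were thinned to the smallest total, the log2 fold changes were -0.55 for Casp1 (adjusted p = 0.0850) and 0.77 for Casp2 (adjusted p = 0.0696), and neither passed.

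**Figure D2:**
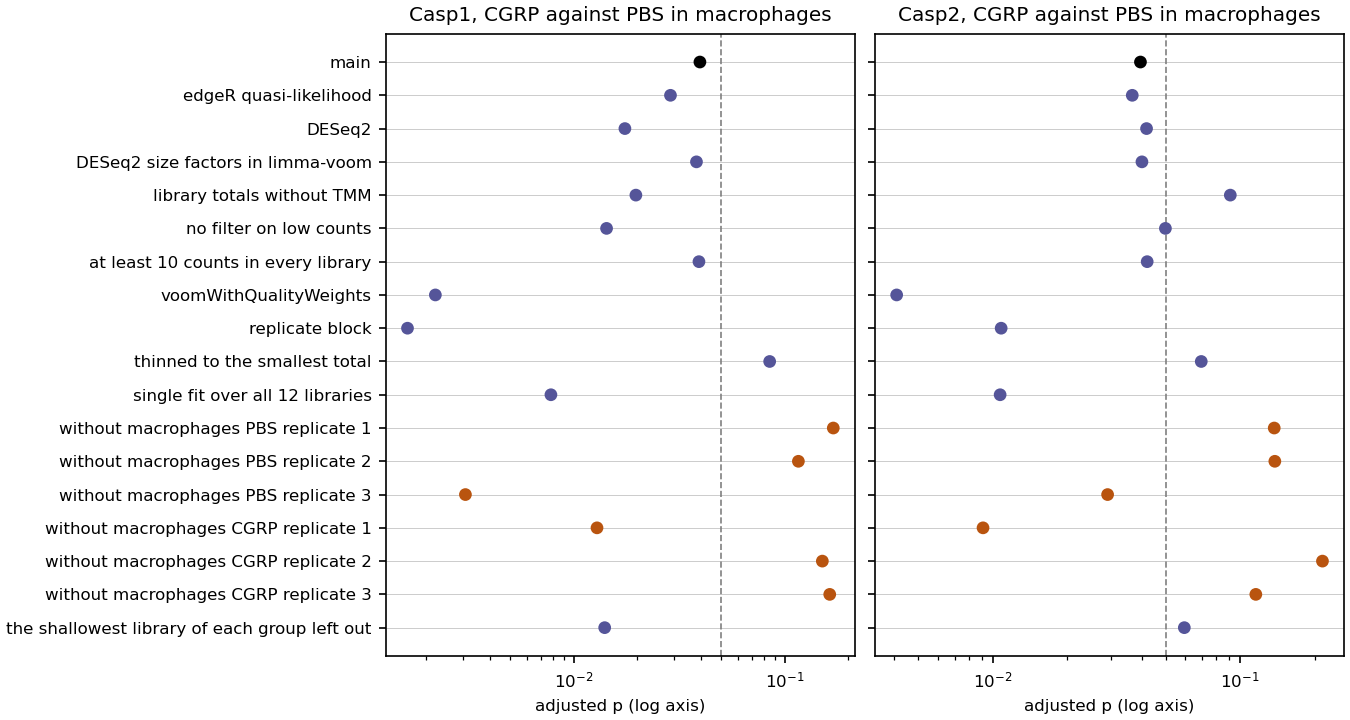
Adjusted p (x axis, log scale) for Casp1 and Casp2, CGRP against PBS in macrophages, under each setting (y axis), with the reported fit in black, other settings in blue, fits without 1 library in orange and the 0.05 threshold dashed. Casp1 lies above 0.05 in 4 of the 6 fits without 1 library, and so does Casp2.

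The remaining inflammasome genes in macrophages did not pass. Pycard had 411, 512 and 352 CPM with PBS and 384, 293 and 288 CPM with CGRP, and 1 CGRP library stood within the PBS range. Its log2 fold change was -0.39 (95% interval -0.73 to -0.06, adjusted p = 0.168). Nlrp3 had 9.92 ± 3.47 CPM with PBS and 10.4 ± 3.62 CPM with CGRP, and its interval, from -0.70 to 0.79 on the log2 scale, was the widest of the 8 genes, followed by that of Casp4 (-0.82 to 0.44). Gsdmd had 51.8 ± 8.49 CPM with PBS and 47.7 ± 7.68 CPM with CGRP (log2 fold change -0.10, 95% interval -0.48 to 0.28). The macrophage values rested on 20 to 39 counts per library for Nlrp3 and on 12 to 34 for Casp4. The smallest change that these libraries could detect was not measured.

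Casp6 and Casp8 had positive fold changes that did not pass in macrophages. Casp6 had 63.7, 73.4 and 61.8 CPM with PBS and 85.2, 90.1 and 88.0 CPM with CGRP, and the groups did not overlap (log2 fold change 0.41, SE 0.14, adjusted p = 0.103). Casp8 had 32.7, 58.7 and 40.6 CPM with PBS and 65.2, 45.4 and 56.3 CPM with CGRP, and the groups overlapped (log2 fold change 0.37, SE 0.21, adjusted p = 0.356). Part of the 3′ sequence of Casp8 is shared with other gene models: 20.5% of its 31-base words in the last 500 bases of its transcripts also occur in another gene, mostly Gm20257, so its counts are less certain. The gene model Gm37760, which overlaps Casp8 on the same strand, had 79 counts over the 12 libraries and at most 14 in any. For Casp1, Casp2, Casp6, Nlrp3 and Gsdmd this share was 0%, and for Pycard and Casp4 it was 0.322% and 2.2%.

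**Figure D3:**
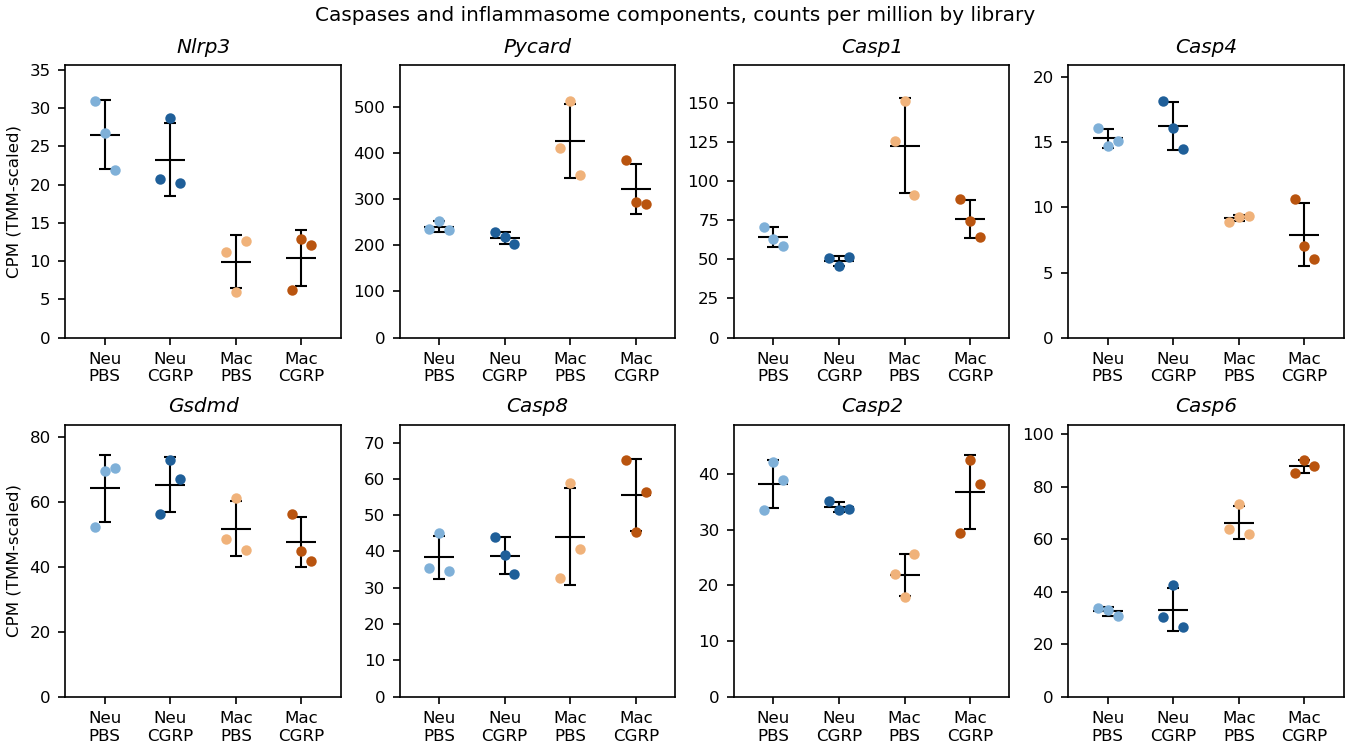
TMM-scaled CPM over the 12 libraries (y axis) for each of the 8 genes in the 4 groups (x axis; Neu, neutrophils; Mac, macrophages), where points are the 3 libraries and black marks are the mean and SD. Casp1 is lower and Casp2 higher with CGRP in macrophages, with no overlap between the 3 and 3 libraries.

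**Figure D4:**
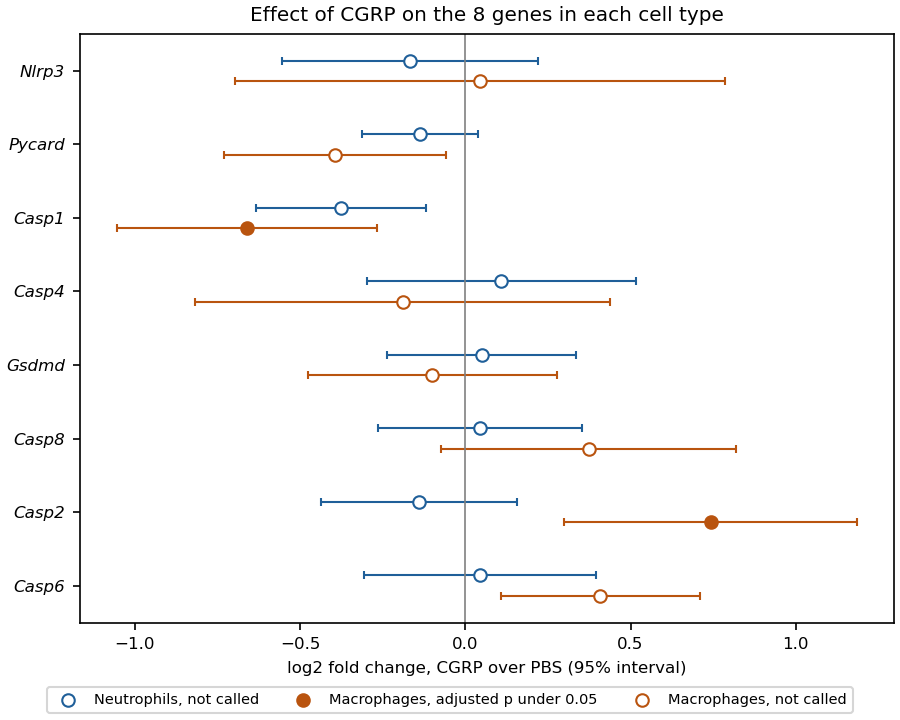
Log2 fold change of CGRP over PBS (x axis) for the 8 genes (y axis) in neutrophils (blue) and macrophages (orange), where bars are 95% intervals and filled points have an adjusted p under 0.05. Only Casp1 and Casp2 in macrophages are filled.

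Whether the effect of CGRP differed between the cell types was tested directly, and 0 of the 8 genes passed by limma-voom, against 2.36% of 10694 genes. One of the 8 (Casp2) had an unadjusted p under 0.05. Its effect was larger in macrophages than in neutrophils by 0.89 log2 units (SE 0.25, limma-voom adjusted p = 0.0597), and the difference passed with edgeR (adjusted p = 0.0470) and DESeq2 (adjusted p = 0.0473). For Casp1 the difference was -0.27 (95% interval -0.76 to 0.22, adjusted p = 0.704). Its fall in macrophages was therefore not shown to differ from the change in neutrophils.

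Several summed marker lists, including that of monocytes and macrophages, were higher with CGRP in the macrophage libraries. The summed neutrophil markers, 10 genes led by S100a8, were 333, 394 and 301 CPM with PBS and 443, 419 and 415 CPM with CGRP. Ly6g was at 0 in 1 library of each group. The summed dendritic cell markers, led by Ccr7 and with Xcr1 at 0 in every library, were 13.8, 12.3 and 13.3 CPM with PBS and 16.0, 21.8 and 25.2 CPM with CGRP. The CGRP values of both sums stood above all PBS values. The red cell, platelet and megakaryocyte, and T or NK cell lists overlapped between the groups. Among all single genes tested in macrophages, the groups did not overlap for 24.1%. In 3 other lists the CGRP values also stood above all PBS values. The monocyte and macrophage list had 11032, 11423 and 11101 CPM with PBS and 11791, 12390 and 12996 CPM with CGRP. The B cell list, carried by Cd79b alone, had 31.8, 32.7 and 31.3 CPM against 37.3, 39.9 and 37.2 CPM, and the eosinophil, basophil and mast cell list, led by Mcpt8 or Prg2 and with Epx at 0 in every library, had 8.61, 8.09 and 7.91 CPM against 11.9, 11.1 and 9.56 CPM. No single gene of any marker list passed the test in either cell type, and the part of these shifts in the Casp1 and Casp2 results was not tested.

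A further 68 genes of the pathway were read beside the 8 members, grouped as sensors, caspase substrates, regulators of transcription and priming, executioners of apoptosis, partners of caspase-2 and caspase-8, death complex genes and inhibitors. In neutrophils 55 of the 68 were tested, and 2 rose and 2 fell, which is 7.27% beside 2.53% of all genes tested. In macrophages 53 were tested, and 3 rose and 1 fell, which is 7.55% and near the 7.43% of all genes. The median log2 fold change was 0.02 in neutrophils and 0.01 in macrophages, close to those of all genes. None of the executioner, partner, death complex or inhibitor genes passed in either cell type.

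Among the pathway genes that passed, the largest fold changes in each cell type were those of caspase-1 substrates. Il1b had 85.1, 95.2 and 98.0 CPM in PBS neutrophils and 193, 217 and 164 CPM in CGRP neutrophils, so that the log2 fold change came to 1.06 (SE 0.11, adjusted p = 3.22e-06). In macrophages it had 3.44, 4.20 and 5.39 CPM with PBS, from 12 to 15 counts, and 62.1, 56.9 and 50.3 CPM with CGRP, where the log2 fold change came to 3.71 (SE 0.29, adjusted p = 6.41e-07). The groups were far apart in both cell types. Il18 rose in neutrophils, from 4.74, 3.68 and 5.40 CPM to 13.3, 9.09 and 14.5 CPM (log2 fold change 1.37, SE 0.31, adjusted p = 0.0159), on 12 to 41 counts per library. The Il18 call was lost without PBS replicate 1 (adjusted p = 0.0875) or PBS replicate 2 (adjusted p = 0.136), and in 3 of 12 other settings, with adjusted p up to 0.0859. In macrophages Il18 had 16.0 ± 6.88 CPM with PBS and 17.2 ± 2.35 CPM with CGRP and did not pass (adjusted p = 0.799).

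Among the other sensors, Mefv, which encodes pyrin, and Aim2, which encodes a sensor of cytosolic DNA, moved in opposite directions in macrophages. Mefv rose from 6.89, 9.59 and 8.99 CPM to 32.3, 28.8 and 28.7 CPM (log2 fold change 1.83, SE 0.24, adjusted p = 9.15e-05). Aim2 fell from 14.6, 17.4 and 11.5 CPM to 6.89, 6.65 and 4.53 CPM (log2 fold change -1.21, SE 0.31, adjusted p = 0.0226), on 9 to 58 counts. It failed without PBS replicate 1, PBS replicate 2, CGRP replicate 2 or CGRP replicate 3, with adjusted p up to 0.0902. Aim2 overlaps the gene Cadm3 on the opposite strand, and Cadm3 had 25746 counts in PBS neutrophil replicate 1 and at most 1 in the other 11 libraries. That library had 68 counts of Aim2, between the 74 and 46 of the other PBS neutrophil libraries. In neutrophils Nod1, a sensor of bacterial peptidoglycan fragments, fell from 66.1, 63.5 and 65.2 CPM to 43.6, 48.7 and 48.2 CPM (log2 fold change -0.46, SE 0.12, adjusted p = 0.0436). The Nod1 call was lost in each of the 6 fits without 1 library, and in 6 of 12 other settings, with adjusted p up to 0.289.

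The regulators Irf8 and Txnip passed, each in 1 cell type. The difference in effect between the cell types did not pass for Irf8 (limma-voom adjusted p = 0.110) or Txnip (adjusted p = 0.0511). Irf8, a transcription factor of myeloid cells, fell in neutrophils from 139, 113 and 147 CPM to 72.5, 70.4 and 78.9 CPM (log2 fold change -0.83, SE 0.12, adjusted p = 0.000183). In macrophages its log2 fold change was -0.27 (95% interval -0.56 to 0.02). Every CGRP macrophage library still stood below every PBS macrophage library for Irf8, where 24.1% of all genes did not overlap. Txnip, whose product binds thioredoxin and has been linked to NLRP3, rose in macrophages from 53.7, 65.0 and 67.2 CPM to 87.1, 92.0 and 86.5 CPM (log2 fold change 0.53, SE 0.15, adjusted p = 0.0376). It failed without PBS replicate 1 or any 1 of the CGRP libraries, with adjusted p up to 0.242, and in 4 of 11 other settings, with adjusted p up to 0.0855. Nlrc4, a sensor of bacterial flagellin and secretion systems, passed in neither cell type. Its log2 fold change in macrophages was 0.48 (adjusted p = 0.175). Its counts are also less certain, since 14.2% of the 31-base words at its 3′ end occur in another gene, mostly Zc3hav1, and a processed pseudogene overlaps it on the same strand.

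**Figure D5:**
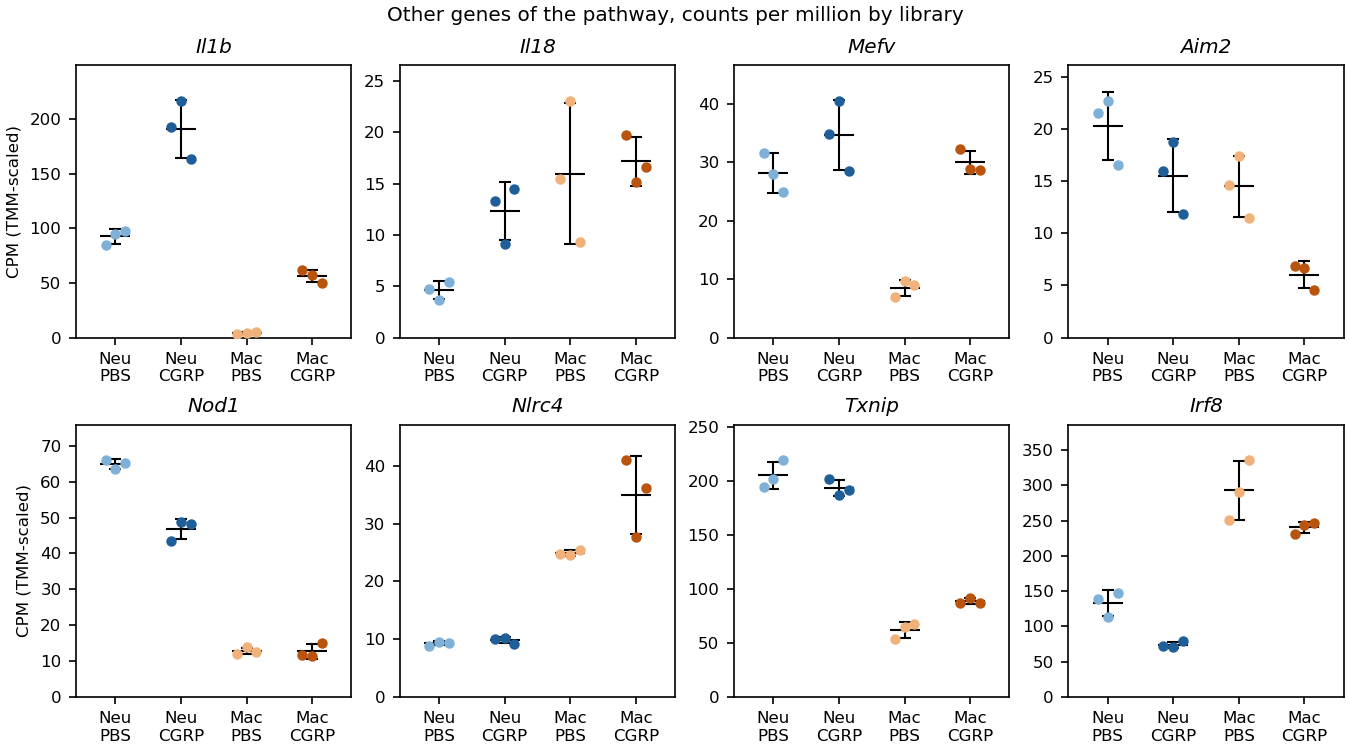
TMM-scaled CPM over the 12 libraries (y axis) of 8 further pathway genes in the 4 groups (x axis; Neu, neutrophils; Mac, macrophages), where points are the 3 libraries and black marks are the mean and SD. Il1b is higher with CGRP in both cell types, Il18 in neutrophils and Mefv in macrophages.

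Between the PBS groups of the cell types, 27 of the 57 pathway genes tested were higher in PBS neutrophils and 16 were higher in PBS macrophages, in all 75.4% beside 67.9% of all genes tested. Il1b (log2 difference 4.41), Nod1 (2.33) and Mefv (1.73) were higher in neutrophils. Nlrc4 (-1.41) and Il18 (-1.72) were higher in macrophages. Nlrp12, which was named after its values had been seen, had 123, 131 and 95 counts in PBS neutrophils and 0 in the 3 PBS macrophage libraries. Against a floor of 3 counts in each macrophage library it was at least 36.9-fold higher in neutrophils.

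The genes whose pattern over the 6 macrophage libraries was most like that of Casp1 were Lage3 (Pearson r = 0.997), Tubb4b (r = 0.995) and Tipin (r = 0.994). For Casp2 they were Rhog (r = 0.994), Crtc3 (r = 0.992) and Gcc1 (r = 0.992). These values describe 6 libraries that share the treatment contrast and the differences in depth.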

How the data were processed

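The authors deposited 1 table of raw gene counts per cell type. Per the methods and the labels, libraries carried molecular identifiers (UMIs), were primed at the poly(A) tail, and were processed with nf-core/rnaseq, STAR on GRCm38 and featureCounts. The annotation release and strand setting are not given in the sources used here. Counts were analysed as deposited in R 4.3.3. After edgeR's default low-count filter by group, limma 3.58.1 (voom, TMM factors from edgeR 4.0.16) compared CGRP with PBS in the 6 libraries of each cell type, and a fit over the 12 libraries gave the difference between cell types and the comparison of the PBS groups. P-values were adjusted over all genes tested by the Benjamini-Hochberg method, with a threshold of 0.05. DESeq2 1.42.0 and other settings were alternatives. No replicate pair of any group was identical. The 8 members and all lists were chosen with earlier results of these data known. Text names all members, listed genes called in either cell type, Il1b, Il18, Nlrc4 and Aim2, and the 3 genes most like each called member. A further gene that the rule names is not reported here. Coordinates are from GENCODE on GRCm38. Counting error limits low counts: a library's floor of 3 counts was 0.826 to 1.50 CPM.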

Additional observations from a re-analysis of the deposited data

Results flagged for a closer look

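A test of the difference in CGRP effect between the cell types singled out 2 of the named genes, and none of the 8 members. They were 3.51% of the 57 pathway genes tested, beside 2.36% of all 10694 genes. Named genes included those that had passed for CGRP against PBS, so they were not a neutral choice for this test. The rise of Il1b was larger in macrophages than in neutrophils by 2.66 on the log2 scale (SE 0.31, limma-voom adjusted p = 1.26e-05), with all 3 CGRP libraries above all 3 PBS libraries in both cell types. The effect on Mefv was larger in macrophages by 1.52 (SE 0.29, adjusted p = 0.00290).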

How the results depend on the processing

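No named gene changed sign in a call under any setting. In neutrophils 0 of the 8 members passed in each setting, while the genes called fell from 248 to 137 in a single fit over all 12 libraries, to 163 without the shallowest library of each group (a setting chosen after seeing the data) and to between 138 and 234 without 1 library. In macrophages the genes called went from 698 to 1050 in the single fit, to 1406 with quality weights and to between 347 and 765 without 1 library. The 2 member calls there became 1 with library totals in place of TMM (Casp2 lost), 1 without the shallowest libraries (Casp2 lost, adjusted p = 0.0595), 0 after thinning, 4 with quality weights (Casp6 and Pycard gained) and between 0 and 3 without 1 library; the cause was not tested. For the difference between cell types, quality weights called 520 genes against 252, and fits without 1 library 149 to 328. Casp2 was the 1 member called there with edgeR, DESeq2, quality weights and the replicate block, and between 0 and 1 members were called without 1 library. The deviations of same-numbered libraries had a mean r of 0.0552 in neutrophils and 0.0498 in macrophages. Each mean rested on only 3 pairs. Single neutrophil values lay between -0.0126 and 0.135, and macrophage values between -0.176 and 0.267. So few pairs cannot decide whether the numbers mark paired libraries, and the main fits used no pairing. With the replicate block, 289 genes were called in neutrophils and 1007 in macrophages, and the adjusted p was 0.00163 for Casp1 and 0.0108 for Casp2. The Cadm3 value, 0.780% of its library's counts, failed the low-count filter, and removing that row, also chosen after seeing the data, left 248, 252 and 7263 calls as before. Its cause was not tested. In the comparison of the PBS groups of the cell types between 5 and 7 members passed: Casp4 was lost with the replicate block (adjusted p = 0.0705), and Gsdmd was gained with quality weights (adjusted p = 0.0453), without neutrophils PBS replicate 1 (adjusted p = 0.0264) and without macrophages PBS replicate 2 (adjusted p = 0.0348).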
